A study of Drosophila melanogaster with 17 samples.

Results

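miR-965 is a Drosophila miRNA whose hairpin gives the strands miR-965-3p and miR-965-5p (mir-965-3p and mir-965-5p in the deposited tables). Both were followed in 17 small RNA libraries of Schneider 2 (S2) cells, a macrophage-like line of embryonic origin. The hairpin was chosen by its measured abundance, for the strong loss of miR-965-3p after oxidation, so values of oxidised against unoxidised libraries are given as a description, and nothing is supported by them. The edgeR calls of arms higher or lower after oxidation cross the 2 groups and are given only as counts or shares of all arms. A change of background for T>C also crosses them and is marked as such where it appears. The 2 strands are among 97 miRNA arms in the oxidised and 135 in the unoxidised deposited mismatch table. Of these, 4 arms of the oxidised and 9 of the unoxidised table share their mature sequence with another copy and were left out of comparisons with other arms.

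All cells were wild type. The oxidised group held 8 libraries from cells given 500 µM 4-thiouridine (s4U) for 0, 0.25, 0.5, 1, 3, 6, 12 or 24 h, with no s4U at 0 h, and the unoxidised group held 8 libraries of the same times. In these 16 libraries the RNA had been treated with iodoacetamide (IAA), which alkylates s4U, and a base so changed pairs as C in reverse transcription, so that T>C mismatches mark molecules made during labelling. For each time, both groups come from the same treated RNA, of which only the oxidised portion met NaIO4. The last library was unoxidised and came from cells without s4U, with no IAA treatment of the RNA. Each group has 1 library per time, so the spread between libraries also holds the time course, and nothing in the labels gives repeat cultures of a time.

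A miRNA hairpin is cut by Drosha and Dicer-1 into a duplex, of which the guide strand stays in an Argonaute protein and the passenger strand is mostly discarded. In flies most miRNA guides enter Argonaute1, which favours a 5′ U, whereas strands loaded into Argonaute2 are 2′-O-methylated at the 3′ end by Hen1. NaIO4 destroys unmodified 3′ ends, so methylated strands are kept in an oxidised library. In the fly abdomen miR-965 is known to act in histoblasts, the precursors of the adult epidermis, where string and wingless are among its targets.

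The sequences of both strands are shown because the labels of their U residues and their 5′ bases are what the measurements read. They are written as DNA, 5′ to 3′, from the hairpin in the deposited tables, with the seed (bases 2 to 8) in capitals.
miR-965-3p: tAAGCGTAtagcttttcccctt
miR-965-5p: gGGGTAAAactgtacgttatatg
The next line gives the stretch from the first base of the 5p strand to the last base of the 3p strand, with both strands in capitals and the loop in lower case.
miR-965 hairpin: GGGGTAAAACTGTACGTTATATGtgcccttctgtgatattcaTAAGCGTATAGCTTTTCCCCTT

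The hairpin gene mir-965 (FBgn0262252) lies at 2L:243035-243141 on the minus strand of the dm6 (BDGP6) genome, within an intron of all 5 transcripts of kis that span it. Kis (kismet) encodes a chromatin remodelling factor. miR-965-3p covers bases 243055 to 243076 and has 22 nt with 9 U. miR-965-5p covers bases 243096 to 243118 and has 23 nt with 7 U. The only other miRNA gene on either side within 1 Mb was mir-375, at a distance of 614507 bases. miR-965-3p starts with U, as did 59 of 78 guides (75.6%), and miR-965-5p starts with G, as did 11 of 48 passengers (22.9%). No other of the 324 arms compared shared bases 2 to 8 with either strand.

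The oxidised libraries held 19074278 to 42511487 small RNA reads and the unoxidised ones 19041816 to 24665859. miRNA reads made up 9.53% ± 1.89 (SD, n = 8) of the oxidised and 54.3% ± 1.49 (SD, n = 8) of the unoxidised small RNA reads, so that each scaling below gives another level. The oxidised 0 h library stood apart: scaled to miRNA reads, 55 of 93 arms in it lay below all 7 other oxidised libraries and 18 lay above them. The 9 guides listed as abundant in S2 cells were all measured in the unoxidised libraries, with means of 11521 to 147021 RPM. RPM is the authors' reads per small RNA read of the library, times 1000000. These guides summed to 331777 to 375756 RPM. The 11 arms typical of other cell types were also all measured, with means of 0.222 to 106 RPM, and they summed to 136 to 160 RPM. Both lists were set with earlier results of these data known, so their levels are no independent check of the cells. In the bulk RNA of a culture, fewer cells that carry a strand and fewer molecules per cell cannot be told apart.

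miR-965-3p was the abundant strand before oxidation and nearly disappeared after it, while miR-965-5p was scarcer and lost less. miR-965-3p had 7.64, 82.0, 147, 157, 107, 115, 95.6 and 69.5 RPM in the oxidised libraries from 0 to 24 h (lowest 7.64, median 101, highest 157). Before oxidation it had 7651, 8407, 9413, 8004, 7686, 8026, 7038 and 8813 RPM (lowest 7038, median 8015, highest 9413). Every oxidised library lay far below every unoxidised one, on a scale where most arms fell after oxidation. For how many other arms the groups were likewise apart was not counted. The untreated library without s4U and IAA held 6646 RPM, below the whole range of the time course.

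The oxidised 0 h value of miR-965-3p rests on 325 reads, whereas the other 7 oxidised libraries gave 1675 to 6242 reads. The oxidised level was 0.0999% to 1.96% of the unoxidised level of the same time, with a median of 1.37%. Without the 0 h pair the range was 0.789% to 1.96% and the median 1.39%. The strand ranked 46 of 93 arms by mean RPM in the oxidised group and 15 of 126 in the unoxidised group.

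miR-965-5p had 33.4, 52.7, 95.5, 103, 55.2, 56.3, 77.9 and 47.0 RPM in the oxidised libraries from 0 to 24 h (lowest 33.4, median 55.8, highest 103). Before oxidation it had 235, 206, 229, 219, 178, 211, 213 and 178 RPM (lowest 178, median 212, highest 235), and 247 RPM in the library without s4U and IAA. The groups did not overlap on this scale either, but the gap was smaller. A fall on this scale was general: edgeR called 55 of 80 arms lower after oxidation and 8 higher, with a median log2 fold change of −2.35. How many other arms were without overlap was not counted. The oxidised level was 14.2% to 47.1% of the unoxidised level of the same time, with a median of 28.9%.

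**Figure D1:**
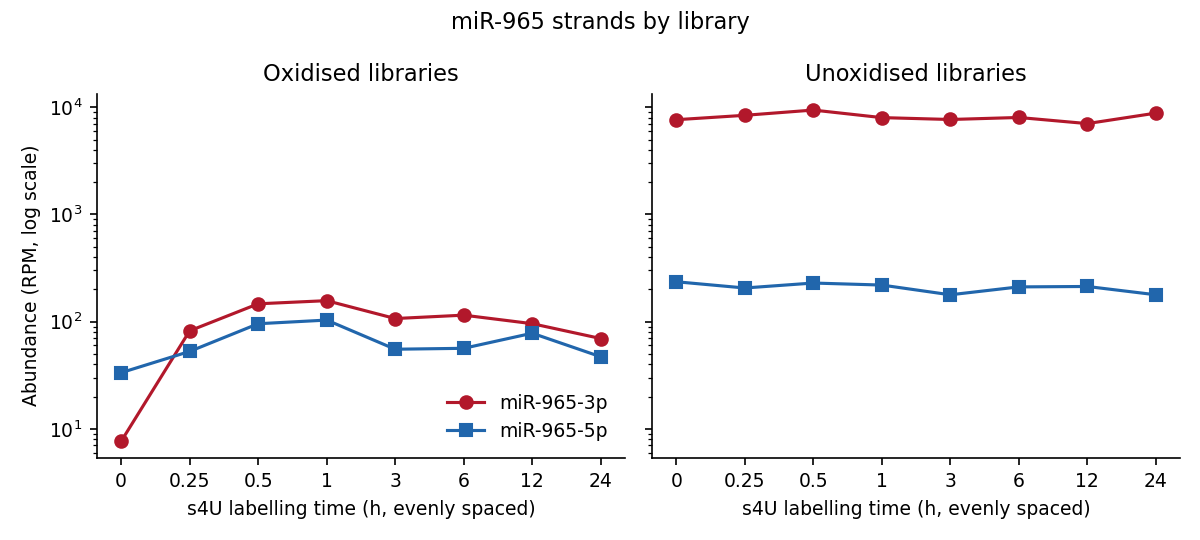
Abundance of miR-965-3p (circles) and miR-965-5p (squares) in RPM on a log axis, in each oxidised library (left) and unoxidised library (right), by s4U labelling time in h. In the oxidised libraries the strands lie near each other except at 0 h, where miR-965-3p is at 7.64 RPM, and in the unoxidised libraries miR-965-3p lies at 7038 to 9413 RPM, far above miR-965-5p at 178 to 235 RPM.

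Scaled to miRNA reads instead, miR-965-3p stood at 57.9 to 1837 RPM of miRNA reads in the oxidised libraries and at 12945 to 16701 in the unoxidised ones. On the same scale miR-965-5p stood at 253 to 1210 RPM of miRNA reads in the oxidised libraries and at 328 to 425 in the unoxidised ones. So miR-965-3p was lower after oxidation in all 8 pairs on both scales. miR-965-5p was lower in 8 of 8 pairs per small RNA read, but per miRNA read it was higher in 7 of 8 pairs, the 0 h pair being the exception.

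Across all arms, edgeR with a block for time gave log2 fold changes of −4.42 ± 0.38 (SE) for miR-965-3p and 0.49 ± 0.14 (SE) for miR-965-5p, oxidised over unoxidised and relative to the other miRNA reads. Of the 80 arms fitted, 43.8% were called higher and 42.5% lower, and the median over all arms was −0.11. miR-965-3p was the sixth lowest, between mir-317-3p at −4.58 and mir-34-3p at −4.12, and miR-965-5p ranked 46 from the lowest, between mir-12-5p at 0.48 and mir-277-3p at 0.72. The median was −1.49 over 48 guides and 1.695 over 32 passengers, so both strands of miR-965 lay below the median of their kind. The gap between the strands was 4.90 log2 units, rank 13 of 28 hairpins with both arms fitted, against a median of 4.28. Scaled to all small RNA reads, the fold changes were −6.61 for miR-965-3p and −1.76 for miR-965-5p, and with the wider set of arms in the position table they were −5.62 and −0.72. The sign for miR-965-5p therefore depends on the scaling.

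**Figure D2:**
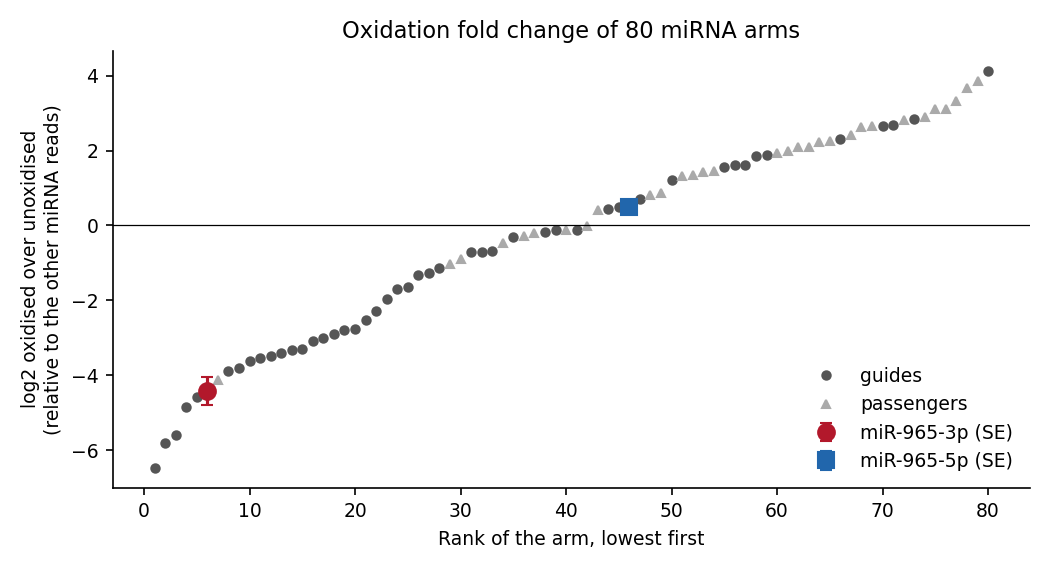
Log2 fold change, oxidised over unoxidised, of 80 miRNA arms ranked from the lowest, with guides as circles, passengers as triangles and miR-965 in colour with its SE. miR-965-3p lies at −4.42 among the lowest arms and miR-965-5p at 0.49 near the middle.

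By a rule of likeness over all 16 time-course libraries (mean absolute difference of log2(RPM + 1), each arm centred on its mean, 65 arms compared), the arms nearest to miR-965-3p were mir-34-3p (0.23), mir-14-3p (0.37), mir-2b-1-3p (0.45), mir-317-3p (0.48) and mir-304-5p (0.57). Of these mir-34-3p is a passenger and the others are guides. miR-14 is known as a suppressor of cell death, and the miR-2 family represses pro-apoptotic genes. Their own log2 fold changes after oxidation lay between −4.85 for mir-14-3p and −3.41 for mir-304-5p. The rule spans both groups and so picks arms with a like fall after oxidation. The likeness of these fold changes follows from the rule and is no separate result.

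The balance of the strands followed from these levels. Of the reads on the hairpin, miR-965-5p took 81.4%, 39.1%, 39.5%, 39.7%, 34.1%, 32.9%, 44.9% and 40.3% in the oxidised libraries from 0 to 24 h. It took 2.98%, 2.39%, 2.37%, 2.67%, 2.26%, 2.56%, 2.93% and 1.98% in the unoxidised libraries, and 3.58% in the library without s4U and IAA. All oxidised values lay above all unoxidised ones, and only at 0 h did miR-965-5p outnumber miR-965-3p. Such a shift was common: the strand gap after oxidation ranked 13 of 28 hairpins, near the median of 4.28 log2 units. For how many other hairpins the shares of the groups did not overlap was not counted. The oxidised 0 h library held 1744 reads of the hairpin (exact 95% interval of the share 79.5% to 83.2%). The share averaged 44.0% ± 15.6 (SD, n = 8) after oxidation, or 38.6% ± 4.03 (SD, n = 7) without 0 h, and 2.52% ± 0.339 (SD, n = 8) before it.

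The share of miR-965-5p showed no relation to labelling time that passed the test. In the oxidised libraries Pearson's r with hours was −0.20 (exact permutation p = 0.599, adjusted p = 0.599) and Spearman's rho −0.07 (exact p = 0.882, adjusted p = 0.882). In the unoxidised libraries r was −0.42 (exact permutation p = 0.303, adjusted p = 0.363) and rho −0.38 (exact p = 0.360, adjusted p = 0.432). With the 2 libraries of the most distant times left out, r was −0.51 in the oxidised and −0.23 in the unoxidised group. P-values were adjusted over 6 relations, which also hold the T>C courses below.

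Neither strand's level was found to move with labelling time. The edgeR slope on log2(1 + h) was 0.10 ± 0.22 (SE) for miR-965-3p (adjusted p = 0.837) and 0.02 ± 0.10 (SE) for miR-965-5p (adjusted p = 0.938) in the oxidised group. In the unoxidised group it was 0.00 ± 0.04 (SE) for miR-965-3p (adjusted p = 0.985) and −0.05 ± 0.03 (SE) for miR-965-5p (adjusted p = 0.353). In the oxidised group edgeR called 0 of 93 arms (0.0%), with 12 at an unadjusted p under 0.05 and 1 called by DESeq2. In the unoxidised group it called 1 of 126 arms (0.794%), and DESeq2 called 21. The unoxidised slopes have the narrower errors.

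The strands differed in how sharply their ends were defined. miR-965-3p was mainly 22 nt, at 85.8% ± 2.41 (SD, n = 8) of its reads in the oxidised and 83.0% ± 1.18 (SD, n = 8) in the unoxidised libraries. Reads of 21 nt made up 8.01% ± 1.61 and 10.2% ± 0.787 of them in oxidised and unoxidised libraries. Reads of 23 nt made up 2.80% ± 1.09 in the oxidised libraries and 5.07% ± 0.174 in the unoxidised ones.

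The extra base of the longer miR-965-3p reads mostly did not match the hairpin, so these reads were mostly tailed with an untemplated U. The change was A23T (the base of the hairpin, its position counted from the 5′ end of miR-965-3p, and the base read). It was found in 87.2% to 100% of the 17 to 200 reads that reached this position in each oxidised library. In the unoxidised libraries it was found in 70.8% to 88.7% of 8788 to 11335 reads, with the lowest share at 6 h and 82.5% or more at the other times. The templated base made up 6.66% of reads at this position in the unoxidised 24 h library.

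miR-965-5p had a broader profile, with its main length, 23 nt, at 52.1% ± 4.85 (SD, n = 8) in the oxidised and 56.1% ± 3.96 (SD, n = 8) in the unoxidised libraries. Reads of 22 nt made up 19.1% ± 2.13 and 19.7% ± 1.68 of it in oxidised and unoxidised libraries. Reads of 18 nt, the lower edge of the size selection, made up 9.15% ± 5.47 in the oxidised libraries (2.13% to 18.6%) and 2.23% ± 1.90 in the unoxidised ones (0.324% to 5.41%). The ranges of the 18 nt share overlap between the groups.

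Over the labelled times, with the 0 h pair left out, loss after oxidation was not equal over lengths. For miR-965-3p the oxidised RPM was a median of 1.46% of the unoxidised RPM of the same time for 22 nt reads. It was 0.930% for 21 nt and 0.658% for 23 nt, but 18.5% for 18 nt reads, which number 101 over the labelled oxidised libraries. For miR-965-5p it was 30.5% for 23 nt, 30.8% for 22 nt and 25.8% for 20 nt. Its 19 nt reads stood at 83.8% (51.9% to 150%) and its 18 nt reads at 105% (10.5% to 880%). By these medians the shortest reads of both strands lost least, with a wide spread between times. In the 0 h pair, left out here, miR-965-3p had 0 reads of 18 nt in the oxidised library and 56 in the unoxidised one.

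**Figure D3:**
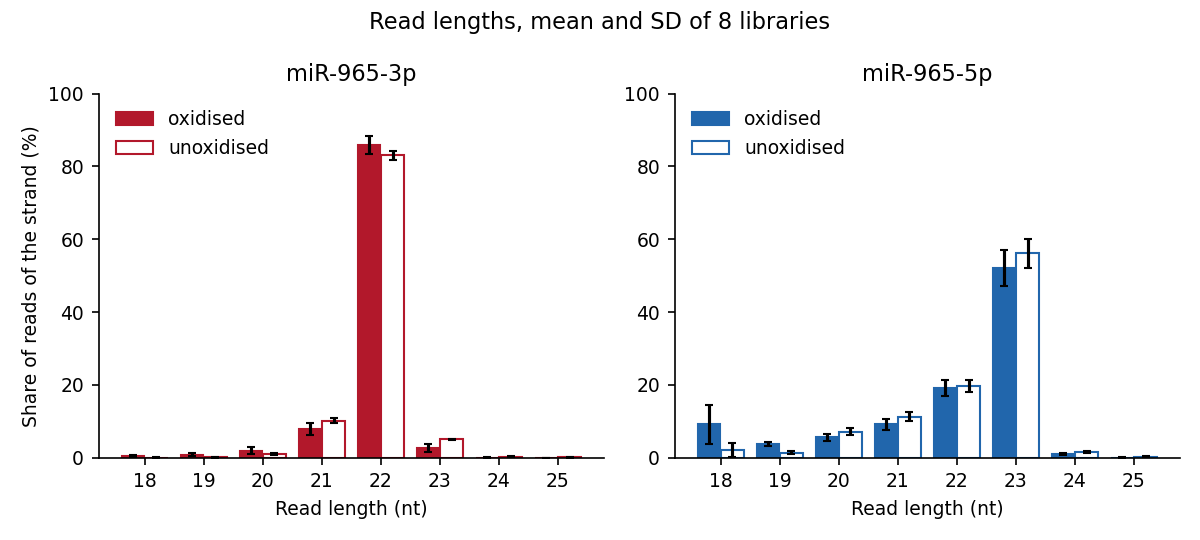
Share of the reads of each strand by read length in nt, as the mean of 8 libraries with the SD, for oxidised (filled) and unoxidised (open) libraries. miR-965-3p is mostly 22 nt (85.8% oxidised, 83.0% unoxidised), and miR-965-5p is spread from 18 to 23 nt with a higher 18 nt share after oxidation (9.15%, against 2.23%).

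The T>C percentage was counted as T>C reads over all reads at the U positions of a strand. Before oxidation the passenger took up label within minutes and the guide over the whole day. From 0 to 24 h miR-965-5p had 0.0368%, 1.17%, 2.09%, 2.16%, 2.01%, 1.90%, 2.38% and 2.63% T>C. miR-965-3p had 0.0791%, 0.0995%, 0.172%, 0.240%, 0.568%, 0.844%, 1.77% and 2.62% at the same times. In the library without s4U and IAA they had 0.0612% and 0.0355%, and the largest other mismatch of either strand in any library, over nucleotides 1 to 18, was 0.243%. At 0.5 h miR-965-5p had reached 79.1% of its 24 h value above 0 h and miR-965-3p 3.65%.

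Both strands carried more T>C than the 0 h library at all 7 labelled times (one-sided Fisher's exact test with Benjamini-Hochberg adjustment over arms and times, a comparison of 2 libraries; largest adjusted p 8.70e-10). For miR-965-3p at 0.25 h the rise was 0.0204 points. The unoxidised libraries without s4U, with and without IAA, had 0.0791% and 0.0355% for this strand. The test covers counting error only, so this call does not separate label from differences between libraries. Of all arms tested, 66.4%, 73.3%, 78.4%, 88.8%, 94.6%, 95.7% and 96.5% passed from 0.25 to 24 h. T>C of miR-965-3p rose at every step with time (Pearson r = 0.99, exact permutation p = 2.48e-05, adjusted p = 0.000149; Spearman rho = 1, exact p = 4.96e-05, adjusted p = 0.000298). With the 2 most distant times left out, r stayed at 0.99. For miR-965-5p the relation missed the threshold (r = 0.59, exact permutation p = 0.143, adjusted p = 0.214; rho = 0.79, exact p = 0.0279, adjusted p = 0.0559; r with the 2 most distant times left out 0.43).

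Measured against each other, miR-965-5p exceeded miR-965-3p by 1.07, 1.92, 1.92, 1.44, 1.06 and 0.616 percentage points from 0.25 to 12 h (two-sided Fisher's exact test over all hairpins and times, largest adjusted p 5.85e-15). The passenger was called higher in 73.5%, 80.4%, 76.6%, 66.7%, 60.5% and 41.7% of the hairpins tested at these times. At 24 h the difference was 0.0153 points (adjusted p = 0.892), where the passenger was called higher in 21.3% of hairpins. At 0 h it was −0.0423 points (adjusted p = 0.00409), where the guide was called higher in 26.1%. With U positions up to nucleotide 18 only, the 24 h difference was −0.549 points (adjusted p = 1.21e-06), so the match at 24 h depends on which U positions are counted. These tests and all exact intervals cover counting error only, and they count each U of a read apart.

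A rise to a plateau gave a time to 50% of 0.194 h (range within about 2 standard errors 0.105 to 0.318 h) for miR-965-5p and of 17.0 h (12.3 to 26.7 h) for miR-965-3p. The value for miR-965-5p lies below the first labelled time, and the plateau fitted for miR-965-3p, 162% of its 24 h value, lies above the levels measured. miR-965-5p ranked 4 from the shortest of 27 passengers with at least 100 RPM (median 0.649 h), and miR-965-3p ranked 35 of 45 such guides (median 14.2 h). Without the 24 h library the time of miR-965-3p reached the upper limit of the fit, 500 h, and with 1 plateau for all arms it was 7.36 h.

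miR-965-3p did not stand alone in its labelling course. By root mean square difference of the T>C percentage above 0 h over the 7 labelled unoxidised libraries, the nearest of 70 arms were mir-275-3p (0.059 points), mir-279-3p (0.061), mir-970-3p (0.064), mir-283-5p (0.085) and mir-34-5p (0.12), all guides. At 24 h miR-965-3p stood 2.54 points above 0 h, and these arms stood 2.33 to 2.46 points above it. Their log2 fold changes after oxidation ranged from −3.63 for mir-275-3p to −0.17 for mir-283-5p. The median of the guides above 0 h was 2.04 points at 24 h, where miR-965-3p ranked 10 of 45. The median of the passengers above 0 h was 0.962 points at 1 h, where miR-965-5p, at 2.12 points, ranked 6 of 27.

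After oxidation the passenger had less T>C at every labelled time, and the guide at 0.5 h and from 3 h on. From 0 to 24 h miR-965-5p had 0.0218%, 0.242%, 0.328%, 0.167%, 0.332%, 0.361%, 0.737% and 0.994% T>C. miR-965-3p had 0.312%, 0.102%, 0.0518%, 0.282%, 0.251%, 0.255%, 0.390% and 1.02% at the same times. miR-965-5p lay below its unoxidised value in every pair. miR-965-3p lay above its unoxidised value at 0, 0.25 and 1 h and below it at the other times, including 24 h with 1.02% in the oxidised and 2.62% in the unoxidised library.

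The oxidised percentages of miR-965-3p rest on few reads. At 0 h they rest on 9 T>C reads over 2886 (exact 95% interval 0.143% to 0.591%), and 5 of the 9 fell on nucleotide 9. At 1 h miR-965-3p had 131 reads with T>C out of 6242, whereas at 0.5 h it had 10 out of 2839 and at 3 h 39 out of 2558. The 1 h library thus had a higher share of reads with T>C on the guide than the 0.5 h library. At 0 h, without s4U, the share was 2.77% (exact 95% interval 1.27% to 5.19%) of 325 reads, and at 1 h it was 2.10%. By one-sided Fisher's exact test T>C at 1 h did not pass against 0 h (adjusted p = 0.836), so it is not shown to be label. The T>C percentage at 1 h, 0.282% (exact 95% interval 0.239% to 0.329%), overlapped that at 3 h, 0.251% (0.190% to 0.326%).

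In the oxidised libraries miR-965-5p passed the test against 0 h at all 7 times (largest adjusted p 0.000262). miR-965-3p passed at 24 h only (adjusted p = 6.10e-05, and 0.442 or more at the other times). Of all arms tested, 14.1%, 33.8%, 60.0%, 76.6%, 83.8%, 86.3% and 94.7% passed from 0.25 to 24 h. The oxidised 0 h background was also replaced by the unoxidised 0 h library, an alternative chosen after the data were seen. It crosses the contrast by which the hairpin was chosen, so its calls support nothing. With it miR-965-3p passed at 5 of 7 times, from 1 h on, where 10.3%, 24.1%, 61.2%, 82.3%, 93.4%, 92.0% and 97.4% of all arms tested passed from 0.25 to 24 h.

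T>C of miR-965-5p followed time in the oxidised libraries (Pearson r = 0.95, exact permutation p = 0.000446, adjusted p = 0.00134; Spearman rho = 0.93, exact p = 0.00223, adjusted p = 0.00670), with r = 0.63 when the 2 most distant times were left out. For miR-965-3p r was 0.92 (exact permutation p = 0.00632, adjusted p = 0.0126) and rho 0.55 (exact p = 0.171, adjusted p = 0.256). Its r was 0.30 with those times left out, so the relation rests on them. Without the 24 h library alone r was 0.63 (adjusted p = 0.214), and without the 12 h library it was 0.95 (adjusted p = 0.0996).

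The wide early gap between the strands was not seen after oxidation. miR-965-5p exceeded miR-965-3p by 0.141 points at 0.25 h (adjusted p = 0.0247), 0.277 at 0.5 h (adjusted p = 8.05e-10) and 0.346 at 12 h (adjusted p = 0.000610) by two-sided Fisher's exact tests. Differences at 3 h (0.0806 points), 6 h (0.106) and 24 h (−0.0214) did not pass. miR-965-3p was the higher strand at 1 h (−0.114, adjusted p = 0.00335) and at 0 h (−0.290, adjusted p = 0.000218). After subtraction of each strand's 0 h value the 1 h difference was 0.176 points, with miR-965-5p higher. So subtracted, miR-965-5p was the higher strand at every labelled time, as at 0.5 h (0.307 against −0.260 points) and 24 h (0.972 against 0.704 points). The value subtracted for miR-965-3p rests on 9 T>C reads, and the subtracted differences were not tested. Over all hairpins tested the passenger was called higher in 23.3%, 23.3%, 13.3%, 13.8% and 17.9% at 0.25, 0.5, 3, 6 and 12 h, and the guide in 60.7%, 61.3% and 53.3% at 0, 1 and 24 h. Among passengers with at least 100 RPM in the unoxidised group, ranked by T>C above 0 h, miR-965-5p was 1 of 24 at 0.5 h and 9 of 23 at 24 h after oxidation. Among such guides miR-965-3p, with its high 0 h value subtracted, ranked 37 of 39 at 1 h.

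**Figure D4:**
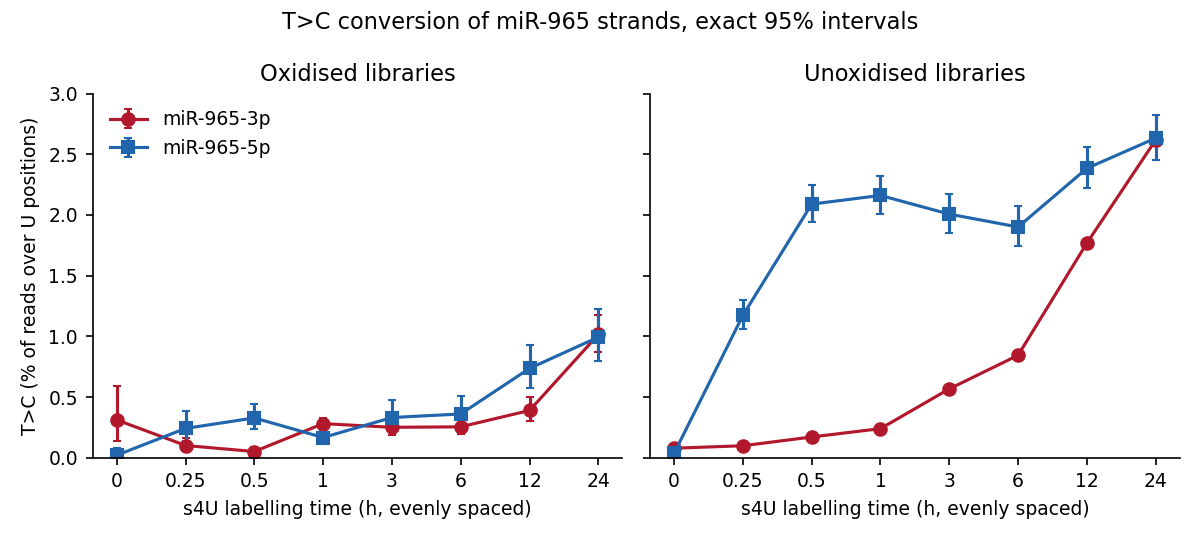
T>C percentage of reads over U positions for miR-965-3p (circles) and miR-965-5p (squares) with exact 95% intervals, by labelling time in h, in oxidised (left) and unoxidised (right) libraries. In the unoxidised libraries miR-965-5p is at 2.09% by 0.5 h, when miR-965-3p is at 0.172%, and both are near 2.6% at 24 h, and in the oxidised libraries both are near 1.0% at 24 h.

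Label was unevenly spread over the U positions of both strands. In miR-965-3p at 24 h it was highest at nucleotide 1 (1.69% oxidised, 3.54% unoxidised) and nucleotide 13 (1.69% oxidised, 3.54% unoxidised). It was low at nucleotide 7 in the seed (0.546% oxidised, 1.28% unoxidised) and at nucleotide 22 (0.117% oxidised, 1.54% unoxidised). In miR-965-5p at 24 h it was highest at nucleotide 20 (2.06% oxidised, 4.44% unoxidised), followed by nucleotide 18 (3.05%) and nucleotide 5 (3.01%) in the unoxidised library. At its nucleotide 22 the oxidised library had 0.206% (exact interval 0.0250% to 0.744%) and the unoxidised one 2.59% (2.09% to 3.17%). In both strands the oxidised 24 h value was below the unoxidised one at every U position up to nucleotide 22. Before labelling, in the unoxidised 0 h library, miR-965-3p already had 0.319% at nucleotide 16, against 0.0690% in the library without s4U and IAA.

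**Figure D5:**
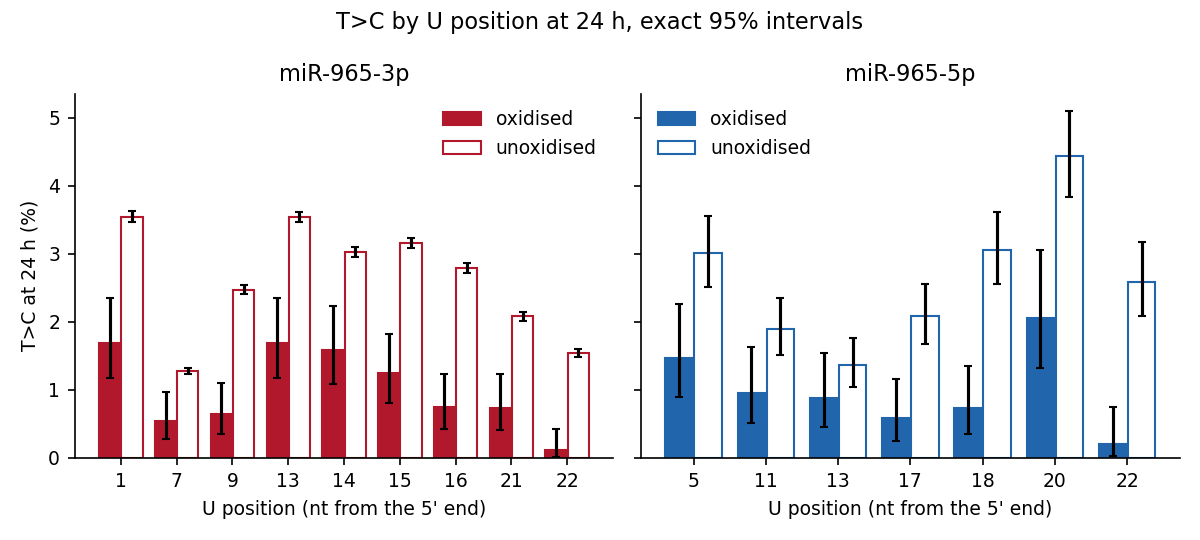
T>C percentage at 24 h at each U position of miR-965-3p (left) and miR-965-5p (right), counted in nt from the 5′ end, for the oxidised (filled) and unoxidised (open) library with exact 95% intervals. Nucleotides 1 and 13 of miR-965-3p and 20 of miR-965-5p are highest, and nucleotide 22 is low in the oxidised library (0.117% and 0.206%).

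Labelled reads had their own lengths. In the unoxidised libraries, label in miR-965-5p sat mostly in full-length reads: at 0.25 h 6.24% of 2854 reads of 23 nt carried T>C, while 0.294% of 340 reads of 20 nt did. At 24 h these shares were 10.6% for 23 nt and 9.29% for 20 nt reads. Labelled miR-965-5p reads averaged 22.7 nt at 0.25 h, where all its reads averaged 22.3 nt, and at 24 h both averages were near 22.4 and 22.3 nt. Reads of 18 nt were few and differed from those of 20 nt: at 0.25 h 4 of 37 (10.8%, exact interval 3.03% to 25.4%) carried T>C.

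In the oxidised libraries the label of miR-965-5p at 0.25 and 0.5 h lay mostly in its shortest reads. At 0.25 h 9 of 13 reads with T>C were 18 nt long, and at 0.5 h 18 of 29. T>C was seen in 6.12% (exact 95% interval 2.84% to 11.3%) of the 18 nt reads at 0.25 h and in 8.82% (5.31% to 13.6%) at 0.5 h. The 23 nt reads of the same libraries stood at 0.573% and 0.614%, and reached 4.40% (3.03% to 6.15%) at 24 h. The lead of oxidised miR-965-5p over miR-965-3p at 0.25 and 0.5 h includes these 18 nt reads, and its size without them was not tested.

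For miR-965-3p at 24 h, T>C was found in 4.89% (3.90% to 6.04%) of 22 nt reads in the oxidised and in 18.4% (18.2% to 18.5%) in the unoxidised library. In its 21 nt reads it was found in 15.5% (10.7% to 21.4%) in the oxidised and in 12.3% (11.9% to 12.7%) in the unoxidised library. So at 24 h the 22 nt reads carried less label after oxidation, while the intervals of the 21 nt reads overlap. The 22 nt reads also had less T>C after oxidation at 0.25, 0.5, 3, 6 and 12 h. At 1 h they had more, 2.01% (1.65% to 2.41%) oxidised and 1.39% (1.33% to 1.45%) unoxidised. The 21 nt intervals were apart at 3 h, with 7.56% (4.09% to 12.6%) oxidised and 3.27% (3.01% to 3.53%) unoxidised, and overlapped at the other labelled times. Of the 18 nt reads of miR-965-3p in the oxidised 24 h library 11 of 20 carried T>C.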

How the data were processed

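Small RNA reads of 18 to 30 nt from S2 cells were analysed from the deposited tables. Per the submitters' processing notes, the dm6 build, cutadapt 1.7.1, Bowtie 1.2.2 and Picard were used; no settings were stated. Mismatch tables hold, as deposited, counts of reads with each base at each position of an arm. Library totals are deposited as counts. Signal by position and by length is deposited in RPM, and on multiplication by library totals 100% of the values became whole (tolerance 0.001).

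The members, gene lists and rules for named arms were chosen with earlier results of these data known. The more abundant arm of a hairpin in the unoxidised group was called the guide. Named besides miR-965 were the 5 arms nearest in level and the 5 nearest in T>C, plus the neighbours in the oxidation ranking, added later. Abundance was fitted with edgeR 4.0.16 (quasi-likelihood, TMM, filterByExpr) in R 4.3.3 on counts of all arms, and with DESeq2 1.42.0 as an alternative. Libraries of the same time were paired because their RNA was split per the labels' protocols; over 80 arms their deviations from the group means correlated above 0.1 in 5 of 8 pairs (−0.32 to 0.47). T>C tests needed 1000 reads over U positions and used Fisher's exact test. Relations with time used exact permutation tests, and Benjamini-Hochberg adjusted p under 0.05 was the threshold. Shares carry exact Clopper-Pearson 95% intervals. Scripts were tested on simulated data. Other software was scipy 1.17.1, pandas 2.3.3 and matplotlib 3.10.9 with numpy 2.4.6 under Python 3.11.15. Alternatives changed scaling, tool, filter, block, read source, U positions, background, time scale, plateau and single libraries.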

Additional observations from a re-analysis of the deposited data

Results flagged for a closer look

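The share of miR-965-5p among the reads of its hairpin in the oxidised 0 h library, 81.4%, lay far from the other 7 oxidised libraries, which held 32.9% to 44.9%. Its gap to the nearest library was 0.753 of the whole range, above Dixon's 95% limit of 0.526 for 8 libraries. It was the 1 value so marked among 10 sets of 8 libraries (RPM, mean length and strand share by group), and chance marks about 1 set in 20. In the same library, scaled to miRNA reads, 55 of 93 arms lay below all other oxidised libraries, and the part of this in the share was not tested.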

How the results depend on the processing

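The fold change of miR-965-3p after oxidation kept its sign under all alternatives: without the replicate block for time it was −4.23 (miR-965-5p 0.53), and without single pairs it ran from −4.75 to −4.27 (miR-965-5p 0.20 to 0.53). Scaled to all small RNA reads it was −6.61, where miR-965-5p turned to −1.76, and with position-table reads miR-965-5p turned to −0.72. Slopes with time, none of which passed in any setting run, changed sign: for oxidised miR-965-3p to −0.0015 on hours, for unoxidised miR-965-3p to −0.011 scaled to small RNA reads, and for oxidised miR-965-5p to −0.037 scaled to small RNA reads and −0.0043 on hours. Without single libraries the slopes of miR-965-3p ran from −0.051 to 0.26 (oxidised) and −0.038 to 0.026 (unoxidised), and those of miR-965-5p from −0.048 to 0.10 and −0.059 to −0.021. DESeq2 called 21 of 126 unoxidised arms and edgeR 1, and on hours edgeR called 8 of them.

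Without single libraries r of T>C with time ran from 0.63 to 0.96 for oxidised miR-965-3p, from 0.90 to 0.97 for oxidised miR-965-5p, from 0.99 to 1.00 for unoxidised miR-965-3p and from 0.53 to 0.71 for unoxidised miR-965-5p. For the miR-965-5p share it ran from −0.24 to 0.33 (oxidised) and from −0.69 to 0.37 (unoxidised). Against the unoxidised 0 h library, a background from the other group that supports no call, oxidised miR-965-3p passed at 5 times in place of 1. The 1 h strand difference of the oxidised libraries was 0.176 points after subtraction of 0 h, opposite in sign to −0.114, and the unoxidised 24 h difference was −0.549 with U positions 1 to 18. The time to 50% of miR-965-3p ran from 13.1 to 500 h without single libraries and was 7.36 h with 1 plateau for all arms, and that of miR-965-5p ran from 0.125 to 0.234 h. Causes were not tested. The 325 reads of miR-965-3p in the oxidised 0 h library limit every value set against it.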
